A study of Mus musculus with 3 samples.

Results

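The *Bmp4*-positive dermal mesenchymal cells of healing mouse skin are described here, as 620 barcodes of 40492 kept in 3 scRNA-Seq libraries. A barcode stands for the transcripts of 1 droplet, in the ideal case 1 cell. Members were taken from the Day 7 and Day 14 libraries and had at least 500 UMIs (unique molecular identifiers, each counting 1 captured transcript), at least 200 detected genes and at most 10% mitochondrial UMIs. In addition, at least 3 of the 7 genes *Bmp4*, *Rspo3*, *Lef1*, *Wif1*, *Ndnf*, *Prlr* and *Hhip* had to be detected with a sum of at least 0.2% of the barcode's UMIs, and *Dcn* with *Col1a2* had to stay under 1.5%. Barcodes with *Dcn* and *Col1a2* at 1.5% or more served as reference fibroblasts (7010 on Day 7 and 7551 on Day 14). By this rule 44 members came from Day 7 and 576 from Day 14.

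The study collected dorsal wounds of male C57BL/6J mice, aged 7 to 12 weeks, made with a 4-mm biopsy punch, on Days 3, 7, and 14 after injury. The labels name no transgene, drug or other treatment, and the groups are told apart by the day of collection. Tissue pooled from 4 samples was digested enzymatically for 1 h and cells were captured unsorted, with 1 library per day. A difference between days is therefore a difference between libraries: no test is possible, no p-value is given, and all intervals are 95% and cover counting error only. Such data cannot separate fewer cells of a type in the tissue from fewer released by digestion.

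The dermal papilla is the knot of specialized mesenchyme at the base of the hair follicle that instructs the overlying epithelium to grow, rest or differentiate. It works through secreted signals: Wnt ligands and R-spondins that activate β-catenin with LEF1 and TCF factors, BMP ligands, FGFs, and a response to Hedgehog from the epithelium. Each of these pathways also carries its own secreted inhibitors, among them WIF1 and NOTUM for Wnt and HHIP for Hedgehog, several of which are induced by the pathway they restrain.

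The 7 rule genes lie apart in the mm10 genome (GRCm38), so they share no locus. *Bmp4*, a BMP ligand, is at chr14:46383520-46390669 on the minus strand, and *Hhip*, which binds and sequesters Hedgehog ligands, is at chr8:79965851-80058006 on the same strand. *Rspo3*, a secreted amplifier of Wnt signaling, is at chr10:29452416-29535867 on the minus strand, and *Wif1*, a secreted Wnt inhibitor, is on the same chromosome at chr10:121033960-121100650 on the plus strand. *Lef1*, the nuclear effector of β-catenin, is at chr3:131110471-131224356, *Ndnf*, a secreted glycoprotein first described in neurons, is at chr6:65671590-65712326, and *Prlr*, the prolactin receptor, is at chr15:10177238-10349180, all on the plus strand. These spans cover whole genes with their exons and introns, and the 3' chemistry counts transcripts near their 3' ends.

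The rule itself used the levels of these genes, which are therefore a description. Expression levels are given as CPM, the UMIs of a gene per 1000000 UMIs summed over a class of cells. *Prlr* reached 2469.9 and 2131 CPM in the members on Days 7 and 14, and *Bmp4* 892 and 899.7 CPM. A *Bmp4* UMI was present in 38 of 44 members (86.4%) on Day 7 and in 486 of 576 (84.4%) on Day 14, so the name holds for most members but not for each of them. The other 5 genes lay between 246 CPM (*Ndnf*) and 389 CPM (*Wif1*) on Day 7, and between 444 CPM (*Hhip*) and 729 CPM (*Wif1*) on Day 14. In the reference fibroblasts, *Bmp4* stood at 1.51 and 13.7 CPM, *Prlr* at 3.96 and 18.4 CPM, and *Rspo3* at 13 and 10.5 CPM.

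**Figure D1:**
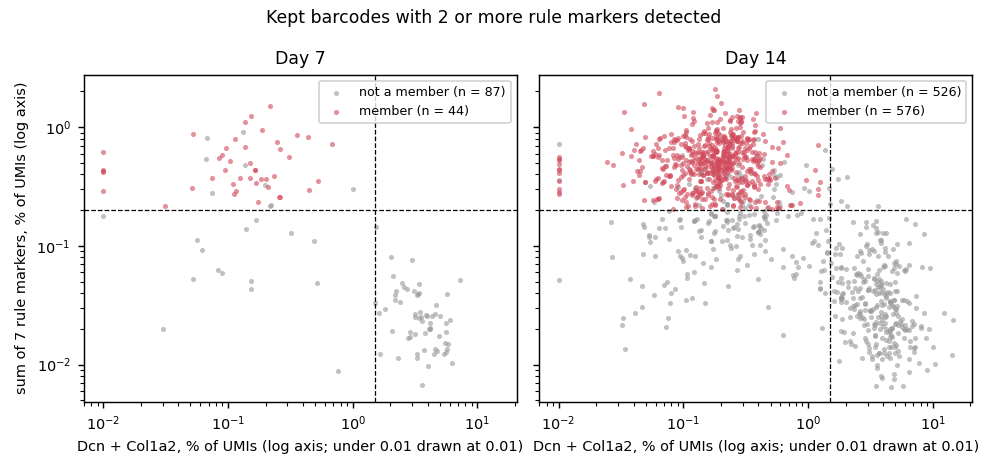
Each point is a kept barcode with 2 or more of the 7 rule genes detected (131 on Day 7, 1102 on Day 14), with the share of UMIs from *Dcn* and *Col1a2* on the horizontal axis and the share from the 7 rule genes on the vertical axis, both in percent on log axes. Members (red) form a cloud at low *Dcn* and *Col1a2* with a median marker sum of 0.435% on Day 7 and 0.514% on Day 14, apart from the reference fibroblasts right of the vertical dashed line, and gray points above the horizontal line had only 2 of the genes or exceeded the *Dcn* and *Col1a2* limit.

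Most members were clear of the *Dcn* and *Col1a2* limit, but many had the fewest genes allowed. Exactly 3 of the 7 genes were detected in 19 of 44 members on Day 7 and in 118 of 576 on Day 14. On Day 7 all 44 barcodes that met the marker part also met the *Dcn* and *Col1a2* limit, with a highest share of 0.680%, and on Day 14 only 7 of 583 exceeded it. Marker sums between 0.2% and 0.25% were found in 2 Day 7 and 41 Day 14 members, and 0 and 28 barcodes fell just outside, between 0.15% and 0.2%. A further 9 and 67 barcodes had 2 of the 7 genes and met every other part. These excluded barcodes carried 1.12% and 1.43% of their UMIs in a list of 24 dermal papilla genes that the rule did not use, close to the 1.55% and 1.54% of the members, whereas the 7 barcodes over the *Dcn* and *Col1a2* limit carried 0.707%. That list is not independent evidence, since some of its genes were named by the study for a cluster of these same libraries.

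The members were shallow cells in deep libraries. The 3 libraries held 5158 to 22924 barcodes and 38133650 to 120940799 UMIs, and median UMIs were 1895.5 and 2503.5 in the members on Days 7 and 14 against 10439.5 and 10448 in the reference fibroblasts. Summed over cells, the members gave 97575 UMIs on Day 7 and 1893914 on Day 14, so Day 7 values are far less precise. The transcript *Gm42418*, which overlaps ribosomal RNA sequence, took 17.7% and 6.71% of the members' UMIs (9.04% and 5.4% in the reference), and the nuclear RNA *Malat1* took 7.20% and 9.25% (1.91% and 3.09%). A doublet score called 1 Day 7 and 17 Day 14 members. Between 19 and 111 barcode sequences were shared by pairs of libraries, and no shared barcode was a member in both. The part of depth and of *Gm42418* in the differences from the reference was not tested.

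Members made up 0.204% of kept barcodes on Day 7 (44 of 21568, 0.148% to 0.274%) and 3.98% on Day 14 (576 of 14472, 3.67% to 4.31%). The Day 14 library thus held a 19.5-fold larger share (14.3 to 27.2). The same rule found 3 of 4452 barcodes on Day 3 (0.0674%), which were not included. Shares depend on what digestion released and on every other class in the library, and keratinocyte-marker cells also went from 35 to 527 barcodes between these libraries.

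Against the reference fibroblasts, the genes furthest above included the transporters *Slc26a7* and *Slc12a1*, the Wnt inhibitor *Notum* and the melanocortin antagonist *a* (agouti). In pairs of values below, the first is from Day 7 and the second from Day 14, and values after "against" are from the reference unless another class is named. Genes entered a comparison when 1 of the 2 classes reached 50 CPM with at least 10 UMIs over both, and a ratio of 2-fold or more was called. Of 4036 genes on Day 7, 33.2% were called higher and 18.9% lower in the members. Of 3615 on Day 14, 31.2% were called higher and 15.2% lower. The median log2 ratio over all counted genes was 0.41 on Day 7 and 0.48 on Day 14, and any list below is to be read against these values. Of the genes called higher, 666 were shared by both days (49.7% of those on Day 7 and 59.0% of those on Day 14), and 8 of 3208 genes counted on both days were called in opposite directions. Since members and reference were chosen by measured values, these ratios are descriptions. A gene that reached 50 CPM only in the class where it is high had to differ, so the number of genes of a list that reached it in the reference is given where it was small.

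*Slc26a7*, an anion transporter, ranked first by the smaller of its Day 7 and Day 14 ratios, at 1773 CPM (1519 to 2058) and 1108 CPM (1061 to 1157) in the members against 0.119 and 2.2 CPM in the reference, a log2 ratio of 13.87 (12.91 to 15.02) and 8.98 (8.76 to 9.21). The sodium-potassium-chloride cotransporter *Slc12a1*, best known from the kidney, was at 246 and 144 CPM, against 0.0528 and 0.333 CPM. After thinning every cell to 500 UMIs, which removes differences in depth, 43.2% and 35.1% of members retained a *Slc26a7* UMI, compared with 0.0349% and 0.192% of macrophage-marker cells (median depth 2804 and 3691 UMIs before thinning), a class that should lack it. Both transporters were thus far above the reference in each library.

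The extracellular Wnt deacylase *Notum* was at 307 and 140.4 CPM, against 0.106 and 0.494 CPM, and *Dkk2*, a secreted modulator of the LRP coreceptors, at 1025 and 671 CPM, against 13.9 and 12.7 CPM. Agouti, encoded by the gene *a*, is the paracrine antagonist that switches melanocytes to yellow pigment. It reached 256 and 457 CPM in the members (log2 8.39 and 7.00). *Mc5r*, a melanocortin receptor, was at 184 and 67.1 CPM, against 0.502 and 0.975 CPM. Hence transcripts of the genes for a melanocortin antagonist and for a receptor of that family were far above the reference in both libraries. Whether a working agouti protein was made in these mice was not tested.

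The other genes at the top of this ranking covered several roles. *Rasd1*, a glucocorticoid-induced small GTPase, had log2 ratios of 10.44 and 7.26, and *Pappa2*, a protease that cleaves IGF-binding proteins, of 9.69 and 7.22. Pericyte-marker cells also held *Rasd1*, at 40.6 and 247 CPM, against 933 and 1038 CPM in the members. The survival factor *Bcl2* was at 963 and 913 CPM, against 5.27 and 9.22 CPM. *Enpp2* encodes autotaxin, which makes lysophosphatidic acid, and was at 1445 and 1358 CPM in the members on Days 7 and 14, against 4.26 and 18.7 CPM in the reference fibroblasts. Both AP-2 transcription factor genes *Tfap2a* (log2 8.89 and 6.56) and *Tfap2c* (11.28 and 6.42) were included. Keratinocyte-marker cells held similar levels, with *Tfap2a* at 106 and 87 CPM against 113 and 116 CPM in the members, and *Tfap2c* at 89.2 and 92.7 CPM against 164 and 95 CPM. Also in this group were the matrix genes *Lamc3*, a laminin chain (10.82 and 6.54), *Gldn*, gliomedin (11.06 and 6.88), and *Col23a1*, a transmembrane collagen (6.22 and 6.42).

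For most of these genes the ratio was larger on Day 7, where their level in the reference was lower, with exceptions such as *Dkk2*, which the reference held at similar levels on both days. *Enpp2*, for example, differed little between member libraries, while the reference went from 4.26 to 18.7 CPM and macrophage-marker cells from 1.15 to 5.94 CPM. *Igfbp3* behaved alike, with 10.9 and 39.5 CPM in macrophage-marker cells. For both genes the level outside the members was higher in the library where members were more numerous. The part of free RNA in this was not tested.

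**Figure D2:**
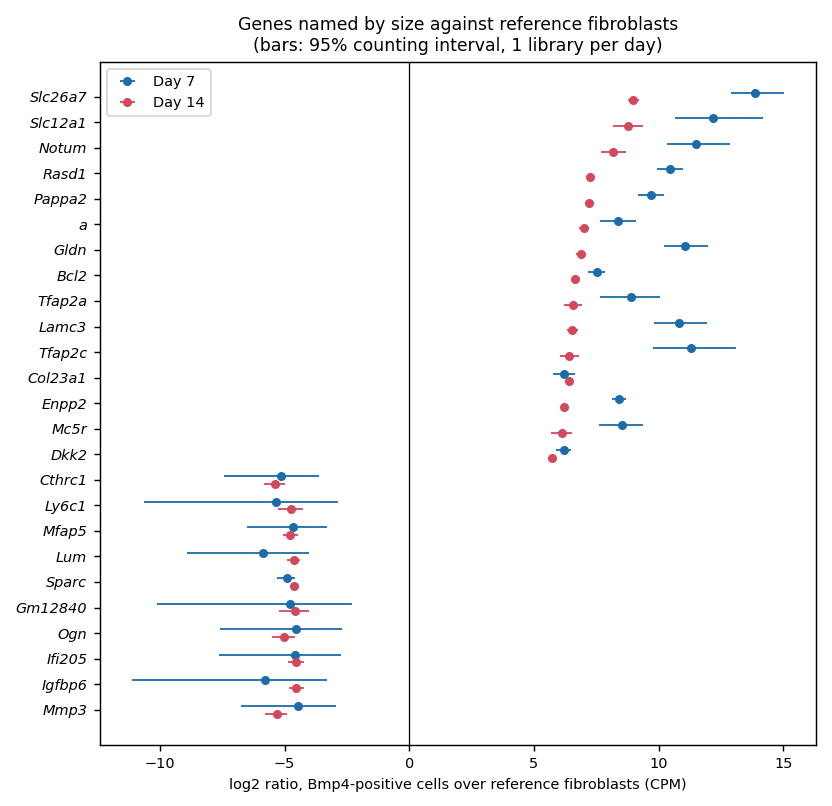
Log2 ratios of CPM in *Bmp4*-positive cells over reference fibroblasts for the 15 genes with the highest and the 10 with the lowest ratios on both days, with bars for the 95% counting interval (1 library per day). The ratios of *Slc26a7* were 13.87 on Day 7 and 8.98 on Day 14, and the 10 lowest genes lay at -4.47 or below on Day 7 and at -4.53 or below on Day 14.

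The dermal papilla list took a larger share of UMIs in the members than in the other classes. Of its 24 genes, 19 on Day 7 and 24 on Day 14 had a higher CPM in the members than in the reference, before any limit on low values. The share of all genes with a higher CPM is not given, so no result is read from this count. Of 14 and 18 counted, 12 and 17 were called higher and none lower, but only 4 and 2 reached 50 CPM in the reference (2 and 1 of them called higher), so these calls were largely set by the limit. Summed, the list took 1.55% and 1.54% of the members' UMIs, compared with 0.0848% and 0.0785% in the reference and 0.0362% and 0.0363% in macrophage-marker cells. Part of this list repeats genes that the study named for a cluster of these same libraries, so it is not independent evidence. Its most abundant gene, *Igfbp3*, an IGF-binding protein, reached 8066 CPM (7512 to 8649) and 7368 CPM (7247 to 7492) against 70.9 and 139.6 CPM in the reference. At 500 UMIs per cell, 81.8% and 85.6% of members had an *Igfbp3* UMI, against 0.419% and 1.25% of macrophage-marker cells and 3.2% and 5.6% of reference fibroblasts.

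Among the other dermal papilla genes, *Trps1*, a GATA-type repressor needed for normal hair, was at 1179 and 948 CPM, against 18 and 26.4 CPM in the reference. *Prdm1*, encoding the transcription factor BLIMP1, was at 184 and 188 CPM, against 5.82 and 5.86 CPM. *Corin*, a protease that restrains agouti, reached 54.4 CPM on Day 14 against 0.247 CPM, and only 2 UMIs were counted in Day 7 members. The alkaline phosphatase gene *Alpl*, a classical dermal papilla stain, had 72.9 CPM on Day 14 and no UMI on Day 7, where 3 counts, the floor used here for a count of 0, would be 30.7 CPM. *Sox2*, *Sox18*, *Hey1*, *Edn3* and *Tbx18* stayed under 50 CPM in both classes on both days. *Vcan*, the proteoglycan versican, was the exception among abundant genes, at 328 and 868 CPM, against 569 and 464 CPM in the reference.

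Wnt inhibitors were called in both directions. Of 16 inhibitors and feedback targets, 5 of 9 counted were called higher and 3 lower on Day 7, and 7 of 11 higher and 3 lower on Day 14. Only 3 and 4 reached 50 CPM in the reference, of which 0 and 1 were called higher and 3 and 3 lower, so the higher calls were largely set by the limit. Beside *Notum* and *Dkk2*, the higher genes included *Sostdc1*, which binds BMP and Wnt coreceptors, at 123 and 259 CPM, against 0.158 and 2.22 CPM, the membrane-bound inhibitor *Apcdd1* at 492 and 310.5 CPM, against 4.33 and 16.8 CPM, and *Nkd2*, an intracellular antagonist, at 195 and 166 CPM, against 2.84 and 6.92 CPM. The 3 lower genes on both days were *Sfrp2* (61.5 and 89.8 CPM against 1379.7 and 887), *Sfrp4* and *Dkk3*, secreted antagonists that reference fibroblasts expressed. *Sfrp4* had 2 and *Dkk3* 1 UMIs in Day 7 members, with log2 ratios of -3.13 (-6.18 to -1.28) and -2.81 (-8.12 to -0.33). The feedback gene *Axin2* stayed under the limit, at 41 and 39.1 CPM.

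Of 10 Wnt ligand and R-spondin genes outside the rule, 8 on Day 7 and 9 on Day 14 had a higher CPM in the members than in the reference. Here too the share of all genes is not given, and no result is read from the count. Only 4 were counted on each day, of which 3 and 4 were called higher, and as 1 and 0 genes reached 50 CPM in the reference, these calls were largely set by the limit. *Wnt5a*, a ligand mostly linked to β-catenin-independent signaling, was at 174 and 253 CPM, against 25 and 27 CPM, and *Rspo1* at 82 and 115 CPM, against 0.158 and 4.18 CPM. *Wnt10a* was at 61.5 and 78.1 CPM, from only 6 UMIs on Day 7, and *Wnt6* at 70.2 CPM on Day 14. Among receptors and effectors, 6 of 9 counted were called higher and 1 lower on Day 7, and 4 of 8 higher and none lower on Day 14. Of the 5 that reached 50 CPM in the reference on each day, 2 and 1 were called higher and 1 and 0 lower. The higher calls were thus largely set by the limit. The β-catenin partner *Tcf7* was at 113 and 119.9 CPM, against 1.02 and 1.85 CPM, the R-spondin receptor *Lgr4* at 71.7 and 66.5 CPM, against 16.5 and 15 CPM, and *Ctnnb1*, encoding β-catenin itself, at 297 and 279 CPM, against 138 and 115 CPM. Those 3 genes were called higher in both libraries.

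The BMP and activin list was close to the whole transcriptome, with a median log2 ratio of 0.36 on Day 7 and 0.71 on Day 14. Of 14 counted genes on each day, 4 and 6 were called higher and 5 and 3 lower. Of the 9 that reached 50 CPM in the reference on each day, 0 and 1 were called higher and 5 and 3 lower. The higher calls were thus largely set by the limit. The ligands *Bmp2* (154 and 106 CPM, against 7.79 and 13.5 CPM), *Bmp7* (266 and 221 CPM, against 7.54 and 7.76 CPM) and *Inhba*, an activin subunit (328 and 549 CPM, against 36.2 and 19.4 CPM), were called higher on both days, as was the decoy receptor *Bambi* (log2 3.25 and 3.61). The lower genes were mostly extracellular. They included *Fstl1* (277 and 355 CPM, against 3324 and 2453 CPM) and *Bmp1*, a protease that processes procollagen and cleaves the BMP antagonist chordin (log2 -3.39 and -1.74). The BMP target *Id1* was at 132 CPM on Day 14 against 8.87 CPM, and *Id3* was called lower on Day 7 (log2 -1.47) and was within 2-fold of the reference on Day 14, at 454 against 498 CPM.

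The Hedgehog targets *Ptch1* and *Gli1* were above the reference at low levels. *Ptch1*, the receptor that is itself a pathway target, was at 113 and 304 CPM, against 9.18 and 15.6 CPM, and *Gli1*, the standard target gene, at 82 and 89.8 CPM, against 4.91 and 9.12 CPM. The transcription factor *Gli3* was called higher on both days (log2 1.69 and 1.43). In all, 5 of 7 counted genes were called higher and 1 lower (*Gas1*) on Day 7, and 3 of 6 higher and 1 lower (*Cdon*) on Day 14. Of the 2 that reached 50 CPM in the reference on each day, 0 were called higher and 1 lower, so the higher calls were set by the limit. *Gas1*, *Cdon* and *Boc* encode coreceptors for the ligand. *Boc* was called higher on Day 7, from 5 UMIs (51.2 CPM against 8.58 CPM), and stayed under the limit on Day 14. *Cdon* had 6 UMIs in the Day 14 members, at 3.17 CPM against 58 CPM in the reference, and *Gas1* was within 2-fold on Day 14.

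Growth factor genes were called in both directions. Of 15 counted on each day, 6 were called higher and 3 lower on Day 7, and 9 higher and 5 lower on Day 14. Of the 10 and 9 that reached 50 CPM in the reference, 2 and 3 were called higher and 3 and 5 lower. The higher calls were thus largely set by the limit. *Fgf10*, a mesenchymal ligand for epithelial FGF receptors, was at 133 and 93.5 CPM, against 2.15 and 4.01 CPM, and *Fgf7*, which acts on the same receptor, at 165 CPM against 33.7 CPM on Day 14 and within 2-fold on Day 7. The receptors *Fgfr2* (log2 4.71 and 3.41) and *Igf1r* (2.66 and 2.52) were called higher on both days. The ligand gene *Igf2* was also called higher on both days, whereas *Igf1* was called lower on Day 14. Unlike *Igfbp3*, the related *Igfbp5*, *Igfbp6* and *Igfbp7* were called lower on both days and *Igfbp2* on Day 14. *Igfbp6* was at 10.2 and 50.2 CPM, against 569 and 1156 CPM, with 1 UMI in Day 7 members and a log2 ratio of -5.80 (-11.10 to -3.32) on that day.

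Of the nuclear receptor and retinoid genes, 6 of 8 counted were called higher and 1 lower on Day 7, and 7 of 11 higher and 2 lower on Day 14. Of the 4 and 5 that reached 50 CPM in the reference, 3 and 1 were called higher and 1 and 2 lower. The glucocorticoid receptor gene *Nr3c1* was the most abundant nuclear receptor gene of the list, at 881 and 837 CPM, against 80.2 and 115 CPM. *Thrb*, a thyroid hormone receptor, was at 205 and 165 CPM, against 8.09 and 11.5 CPM. *Cyp26b1*, which degrades retinoic acid, was at 215 and 194 CPM, against 6.46 and 20.03 CPM, and the retinoic acid-binding *Crabp1* at 502 and 879 CPM, against 54.9 and 31.9 CPM.

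Of the transcription factor list, 5 of 16 counted were called higher and 3 lower on Day 7, and 13 of 18 higher and 1 lower on Day 14. Of the 8 and 7 that reached 50 CPM in the reference, 0 and 3 were called higher and 3 and 1 lower. The higher calls were thus largely set by the limit. *Runx3* was called higher on both days, at 195 and 287 CPM, against 7.18 and 6.58 CPM, as were *Trps1* and *Prdm1* (above) and the positional genes *Hoxc9* and *Hoxc10*. The Day 7 ratio of *Hoxc9* went from 1.17 to 0.64, from 3 UMIs, without the members that carried markers of other cell types. *Hoxc6* (263 against 34.8 CPM), *Runx1* (484 against 172 CPM) and *En1*, which marks a dorsal dermal lineage (246 against 96.5 CPM), were called higher on Day 14 and were within 2-fold on Day 7. *Foxp1* was the only member of the list called lower on both days (log2 -1.48 and -1.77).

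Matrix genes lay far below the reference in the members. Of 20 fibrillar collagen and scar matrix genes, 19 were called lower on Day 7 and 20 on Day 14, with median log2 ratios of -3.62 and -3.23. The list took 0.630% and 0.780% of the members' UMIs against 11.8% and 13.8% in the reference, and 0.480% and 0.580% in macrophage-marker cells. *Col1a1* was at 1896 and 2068 CPM, against 41292 and 52344 CPM in the reference, and at 1509.7 and 2031 CPM in macrophage-marker cells. The members' *Col1a1* was thus close to the level of macrophage-marker cells, and its source was not tested. The rule held down *Dcn* and *Col1a2*, with which these genes vary, so these values are not independent of the rule.

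The lowest ratios by size belonged to *Cthrc1*, a collagen-associated secreted protein (log2 -5.15 (-7.43 to -3.61) and -5.37), the microfibril gene *Mfap5* (-4.65 and -4.77), the proteoglycan genes *Lum* (-5.88 (-8.92 to -4.03) and -4.64 (-4.90 to -4.39)) and *Ogn* (-4.56 (-7.61 to -2.71) and -5.02 (-5.52 to -4.57)), *Sparc*, a collagen-binding matricellular protein (-4.92 and -4.61), and the matrix protease *Mmp3* (-4.47 (-6.75 to -2.92) and -5.31 (-5.77 to -4.89)). *Igfbp6*, *Ly6c1*, *Ifi205* and the noncoding *Gm12840* completed the 10, and on Day 7 several of these had 1 to 3 UMIs in the members. *Itgbl1*, the gene at the center of the study, had no UMI in Day 7 members and was at least 2.84-fold lower than in the reference (87.5 CPM), taking 3 counts in all Day 7 members as the floor. On Day 14 it was at 13.2 CPM against 332 CPM. Of 15 genes that the study examined, 11 of 13 counted on Day 7 and 9 of 11 on Day 14 were lower. The TGFβ receptor gene *Tgfbr1* was the one called higher on both days, whereas the receptor gene *Tgfbr2* was called lower on both. Without the members that carried markers of other cell types, the Day 7 log2 ratio of *Tgfbr1* was 1.14, from 5 UMIs.

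Despite this low matrix expression, general mesenchymal genes were near the reference in sum. The list of 12 such genes took 0.627% and 0.731% of the members' UMIs and 0.692% and 0.743% in the reference, against 0.331% and 0.373% in macrophage-marker cells. *Vim*, the abundant intermediate filament gene vimentin, made up much of this, at 2788 and 3923 CPM in the members and 1797 and 2637 CPM in macrophage-marker cells. The comparison with the reference had 1 and 2 genes called higher, 4 and 2 lower, and 7 and 8 within 2-fold. *Pdgfra*, the receptor that marks dermal fibroblast lineages, was at 246 and 252 CPM, against 216 and 152 CPM in the reference and 8.69 and 8.71 CPM in macrophage-marker cells. *Prrx1*, a limb and skin mesenchyme transcription factor gene, was at 533 and 465 CPM, against 456 and 368 CPM, with 21 and 21.9 CPM in macrophage-marker cells. *Cdh11*, a mesenchymal cadherin, was called higher on both days, *Thy1* and *Lum* were called lower on both days, and *Pdgfrb* and *Twist2* on Day 7 (*Pdgfrb* at -0.93 without the members that carried markers of other cell types).

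Basement membrane and follicle matrix genes were mixed, with 8 of 17 counted called higher and 6 lower on Day 7 and 7 of 18 higher and 4 lower on Day 14. Of the 11 and 12 that reached 50 CPM in the reference, 2 and 1 were called higher and 6 and 4 lower. The higher calls were thus largely set by the limit. *Col13a1*, a transmembrane collagen, was at 218 CPM on Day 14 against 0.901 CPM, and *Spon1*, encoding F-spondin, at 420.2 and 429 CPM, against 31.4 and 38.5 CPM. The basement membrane collagen *Col4a2* was called higher on both days (164 and 187 CPM, against 38.2 and 86.4 CPM), far below pericyte-marker cells (1732 and 1634 CPM). The laminin genes *Lama4* and *Lamc1* and the perlecan gene *Hspg2* were called lower on both days.

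Markers of other cell types were low, with the exception of macrophage markers on Day 7. Their list took 0.368% and 0.144% of the members' UMIs on Days 7 and 14, against 1.90% and 3.39% in macrophage-marker cells and 0.101% and 0.0884% in the reference, and 5 and 21 members exceeded 0.5%. All 9 counted macrophage markers were called higher than in the reference on Day 7 and none of 7 on Day 14. Without the members that exceeded 0.5% for any other cell type, the Day 7 log2 ratio of the complement gene *C1qa* went from 1.99 to -1.41 and that of *Lyz2* to -0.27. Neutrophil markers took 0.108% on Day 7, nearly all from 1 barcode, and 0.00037% on Day 14. Keratinocyte markers took 0.00102% and 0.0295% (2.92% and 3.15% in keratinocyte-marker cells), and 3 Day 14 members exceeded 0.5%.

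Pericyte markers took 0.0123% and 0.0161% of the members' UMIs, against 0.958% and 0.891% in pericyte-marker cells. The defining *Rgs5* had no UMI in Day 7 members and was at 9.5 CPM on Day 14, against 7619 and 7137 CPM in pericyte-marker cells. *Cspg4*, the NG2 proteoglycan counted among pericyte markers, was nevertheless 123 and 130.4 CPM in the members against 4.88 and 4.62 CPM in the reference. The contractile genes of the dermal sheath took 0.0205% and 0.0456%, well under the 0.628% and 0.906% of pericyte-marker cells, with *Acta2* at 41 and 16.4 CPM, although the myosin light chain gene *Myl9* (92.2 and 181 CPM, against 37.8 and 19.8 CPM) was called higher on both days, with a Day 7 log2 ratio of -0.013 when a marker sum of 0.4% was required. Schwann, endothelial, T cell, mast cell, melanocyte, and muscle and adipocyte markers took at most 0.00922% in either library.

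**Figure D3:**
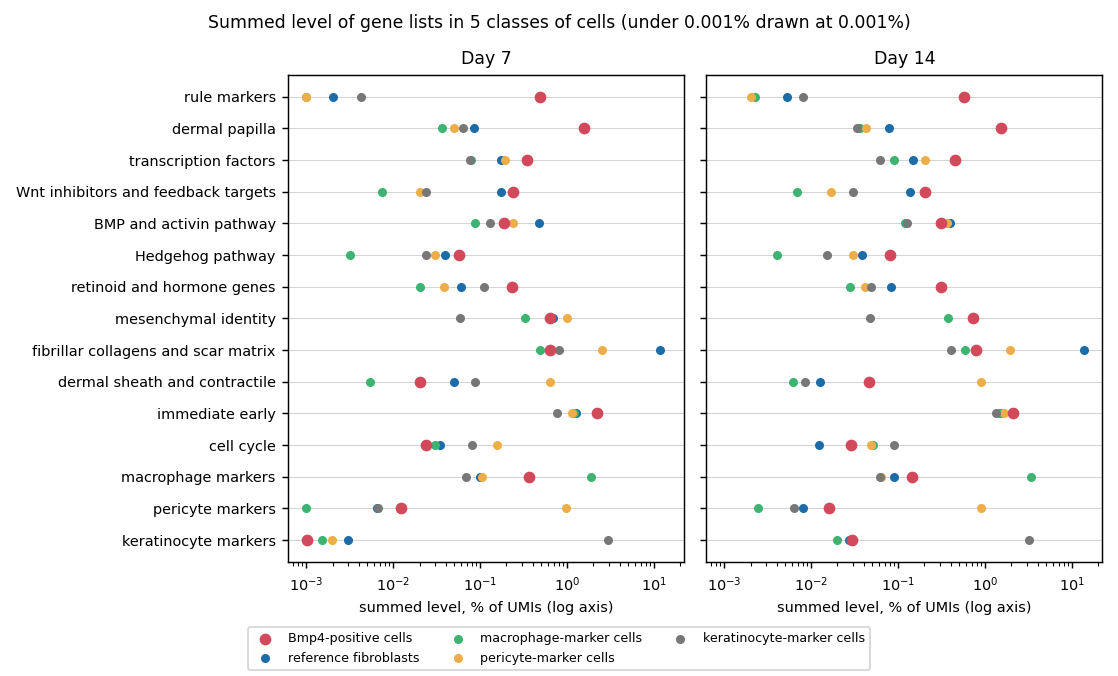
Summed level of 15 gene lists, in percent of UMIs on a log axis, in the *Bmp4*-positive cells (large red points) and 4 comparison classes on each day, 1 library per day. The members stand at 1.55% and 1.54% for dermal papilla genes, above each of the other classes, and at 0.630% and 0.780% for scar matrix, close to macrophage-marker cells.

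*Cdkn1a* was high in the members, while most cell cycle genes were scarce. The list of 10 cell cycle genes took 0.0236% and 0.0288% of the members' UMIs, against 0.0347% and 0.0123% in the reference. Only 3 were counted on either day, with *Ccnd1* called higher and *Stmn1* lower on Day 7, and *Hmgb2* and *Stmn1* higher on Day 14. The Day 7 log2 ratio of *Ccnd1* went from 1.27 to -0.82 without called doublets and to -0.58 without members carrying markers of other cell types. *Mki67*, the standard proliferation marker, had 2 and 4 UMIs. *Cdkn1a*, encoding the cell cycle inhibitor p21, was at 819.9 and 2331 CPM, against 226 and 379 CPM in the reference, and *Cdkn1b*, encoding p27, at 164 and 233 CPM, against 71.6 and 72.7 CPM. Immediate early genes, which dissociation is known to induce, took 2.18% and 2.12% of the members' UMIs and 1.25% and 1.47% in the reference. The orphan receptor gene *Nr4a1* was at 543 and 1509 CPM, against 110.4 and 149 CPM, and *Junb* at 2879.8 and 3307 CPM, against 1101 and 1305 CPM, while *Atf3* was lower in the members (log2 -1.13 and -1.83). The part of dissociation in the *Cdkn1a* and *Nr4a1* levels was not tested.

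Between the member libraries, the differences beyond counting error included *Crabp2*, *Id3*, *Cdkn1a*, macrophage genes and the keratinocyte marker *Krt10*. *Krt10* had no UMI in Day 7 and 104 CPM in Day 14 members, against 3793 and 8093 CPM in keratinocyte-marker cells, and both counted keratinocyte markers (*Krt1* and *Krt10*) were called higher on Day 14. *Krt10* was also higher on Day 14 in the reference (log2 2.44), and its ratio in the members, with 3 counts as the Day 7 floor, went from 1.76 to 0.89 without the members that carried markers of other cell types. Of 3936 genes, 13.3% were called higher and 13% lower on Day 14 than on Day 7. Leaving the 50 most abundant genes out of the scaling changed the split between higher and lower calls from 50.7% higher to 38.0% higher, so no balance is read from it. The whole counting interval lay beyond 2-fold for 24 higher and 98 lower genes. *Igfbp3* (log2 -0.13), *Enpp2* (-0.09), *Prdm1* (0.03), *Pdgfra* (0.03) and *Col1a1* (0.13) were within 2-fold between the libraries.

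Of the macrophage markers, 6 of 9 counted were called lower in the Day 14 than in the Day 7 members and 3 were within 2-fold. Among genes with a UMI in at least 10 members on Day 7, the 10 lowest ratios belonged to *Laptm5*, *Ctsd*, *Lgmn*, *Ctss*, *Lyz2*, *Ctsb*, *Psap*, *Ccl6*, *Hmox1* and *Selenop*, with log2 ratios from -3.36 to -1.79. Macrophages express these genes, and reference fibroblasts also expressed several of them (*Ctsb* at 1143 CPM on Day 7). The reference was also lower on Day 14 for 9 of the 10, with log2 ratios from -1.57 (*Lgmn*) to -0.44 (*Psap*), and was at 0.46 for *Selenop*. For these genes 22.7% to 43.8% of the Day 7 UMIs came from 1 barcode. Members with at least 0.5% of UMIs in markers of another cell type numbered 6 on Day 7 and 24 on Day 14. Without them, 38 and 552 members remained, and the ratio of *Ctsd* went from -3.05 to -1.36 and that of *Ctsb* from -2.61 to -1.11. Of the 10 macrophage markers, 6 had a lower and an upper limit on either side of 0, such as *C1qa* (-0.30 (-1.91 to 2.02)), *Fcer1g* (-0.54 (-1.82 to 1.12)), *C1qc* (-0.39 (-2.35 to 2.70)) and *Cd74* (-0.50 (-1.52 to 0.74)). *Cd68* and *Adgre1* had no UMI in the remaining Day 7 members, so their intervals had no upper limit and spanned 0 as well. *Lyz2* was still lower, at -1.76 (-2.52 to -0.91), as was *Csf1r*, at -3.38 (-4.99 to -1.52). The levels of *Ctss* fell from 625 to 171 CPM on Day 7 and from 79.2 to 21.1 CPM on Day 14, with log2 ratios between days of -2.98 and -3.02. By their whole interval, 12 genes were then higher and 17 lower beyond 2-fold, of which 7 and 13 were also among the 24 and 98 of all members. The 17 lower genes included the macrophage-expressed *Cybb*, *Ly86*, *Csf1r*, *Ms4a7*, *Spp1*, *Cd36*, *Ctss* and *Laptm5*, each from 4 to 12 Day 7 UMIs, as well as *S100a4* and *Gm42418*. The limit of 0.5% leaves members with smaller amounts of such markers, and their part was not tested.

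The 12 higher genes included *Crabp2*, a retinoic acid-binding protein that delivers its ligand to the nucleus. Without these barcodes its log2 ratio was 3.17, that of *Id3* 2.47, of *Cdkn1a* 1.58 and of *Nr4a1* 1.65. Over all members, *Crabp2* went from 30.7 CPM (3 UMIs) to 242 CPM (220.2 to 265), a log2 ratio of 2.98 (1.42 to 5.26), while the reference stood at 10.7 and 10.7 CPM and keratinocyte-marker cells at 330.4 and 79.5 CPM. The part of keratinocyte RNA in this was not tested. *Id3*, a BMP-induced inhibitor of differentiation factors, went from 92.2 to 454 CPM, 2.30 (1.37 to 3.43), and from 255 to 498 CPM in the reference (0.96). *Cdkn1a* (1.51 (1.19 to 1.85), 0.74 in the reference) and *Nr4a1* (1.47 (1.08 to 1.89), 0.43 in the reference) were higher as well. The others of the 12 were *Gng5*, *D8Ertd738e*, *Cox8a*, *Mxra7*, *Cebpb*, *H3f3a*, *Tubb4b* and *Rpl23*. The 10 largest increases by size, *Mxra7*, *Rarg*, *Frat2*, *Tubb2a*, *Tmem158*, *Hypk*, *Nkd1*, *Crabp2*, *Glo1* and *Amd1*, rested on at most 3 UMIs on Day 7, and *Mxra7*, the first of them, had a log2 ratio of 3.68 (1.19 to 8.99).

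**Figure D4:**
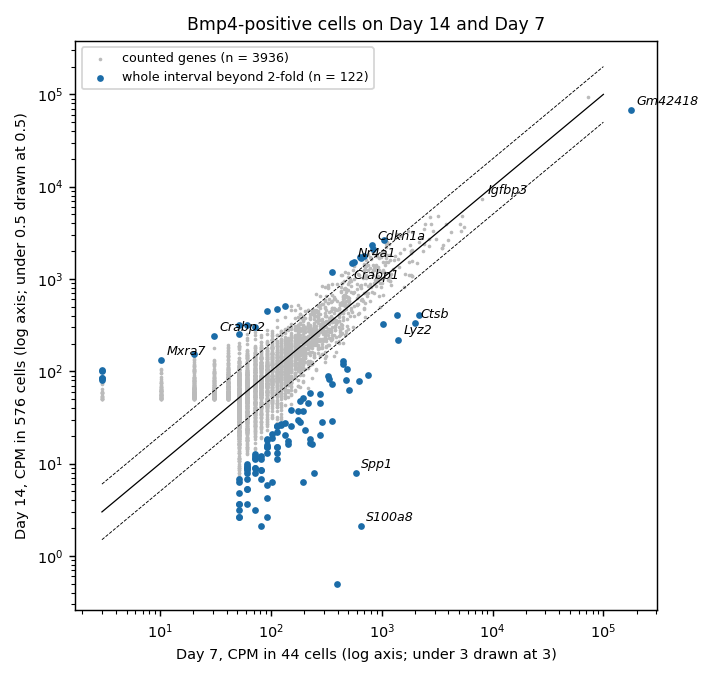
CPM of 3936 counted genes in the 44 members of Day 7 (horizontal) and the 576 members of Day 14 (vertical), on log axes, with dashed lines at 2-fold and blue points for the 122 genes whose whole counting interval lies beyond it. *Igfbp3* lies near the diagonal at 8066 and 7368 CPM, whereas *Crabp2* and *Cdkn1a* lie above it and the macrophage genes *Lyz2* and *Ctsb* below it, and Day 7 values fall on steps because 1 UMI equals 10.2 CPM.

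The Day 14 members were not uniform. In cells thinned to 1000 UMIs, *Vcan* had the largest ratio of variance to mean after *Ccl8*, *Malat1*, *Cd74*, *Gm42418* and *H2-Aa*, 6.65, with a UMI in 22.2% of 568 cells. Grouping by *Vcan* was chosen after these values were seen and is a description without a test. No *Vcan* UMI was found in 368 members (63.9%), 141 (24.5%) had less than 0.1% of their UMIs in *Vcan* and 67 (11.6%) had 0.1% or more. The last were deeper, with a median of 3858 UMIs against 2787 and 2302, and the part of depth was not tested. On Day 7, 3 of 44 members were at 0.1% or more.

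The *Vcan*-rich members were higher in *Corin* and *Alpl*, while the dermal papilla list took a smaller summed share of their UMIs. *Igfbp3*, the most abundant gene of the list, accounted for the smaller share (levels below). Of 19 list genes counted, 8 were at least 2-fold higher and 3 lower than in *Vcan*-negative members, beside 455 higher and 227 lower of all 3638 genes counted. Summed, the list took 0.983% of UMIs in the *Vcan*-rich, 1.51% in the members with little *Vcan* and 1.54% in the *Vcan*-negative. *Vcan* itself, a gene of the list, was left out of these counts and shares. *Corin* was at 247 CPM, against 24 and 18 CPM in the members with little and no *Vcan*, with a UMI in 41.8% of the *Vcan*-rich and 4.08% of the *Vcan*-negative cells. *Alpl* was at 388 CPM, against 21 and 14.9 CPM, with a UMI in 59.7% and 3.26%. *Igfbp5* (1306 CPM, against 115 and 30.8 CPM), the activin and BMP antagonist *Fst* (529 CPM, against 40.4 and 12.7 CPM) and *Rspo4* (127 CPM, against 32.9 and 6.37 CPM) were higher in the same cells. The Hedgehog target *Ptch1* was at 889 CPM, against 228 and 182 CPM, and the Notch target *Hey2* at 127 CPM, against 13.5 and 11.7 CPM. Of the rule genes, *Wif1* (2752 CPM, against 485 and 294 CPM) and *Hhip* (1641 CPM, against 250.0 and 222 CPM) were also higher there.

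Conversely, the *Vcan*-rich members were lower in genes that led the comparison with the reference. *Igfbp3* was at 1059 CPM, against 7852 and 8923 CPM, present in 35.8% against 99.7% of the *Vcan*-negative cells in spite of the greater depth. *Slc26a7* (268 CPM, against 1274 and 1243 CPM), *Rasd1* (127 CPM, against 1211 and 1188 CPM), *Dkk2* (98.8 CPM, against 761 and 779.7 CPM) and *Prlr* (646 CPM, against 2424 and 2369 CPM) had the same direction, as did *Bmp2* (17.6 CPM, against 106 and 133 CPM) and *Cdkn1a* (850.4 CPM, against 2602 and 2584 CPM). Immediate early genes took 1.38% of UMIs in the *Vcan*-rich members, against 2.3% and 2.21%, and the median mitochondrial share was 2.25%, against 1.58% and 1.62%, and the part of either in these levels was not tested. *Lef1* (476 CPM, against 478 and 529 CPM), *Trps1* (956 CPM, against 993 and 913 CPM), *Notum* (138 CPM, against 151 and 134 CPM) and *Col1a1* (2068 CPM, against 1939 and 2159 CPM) were within 2-fold between all groups. Of 3638 genes counted between *Vcan*-rich and *Vcan*-negative members, 455 were at least 2-fold higher and 227 at least 2-fold lower, with whole intervals beyond 2-fold for 111 and 57. The members with little *Vcan* lay near the *Vcan*-negative ones for most of the genes named here.

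**Figure D5:**
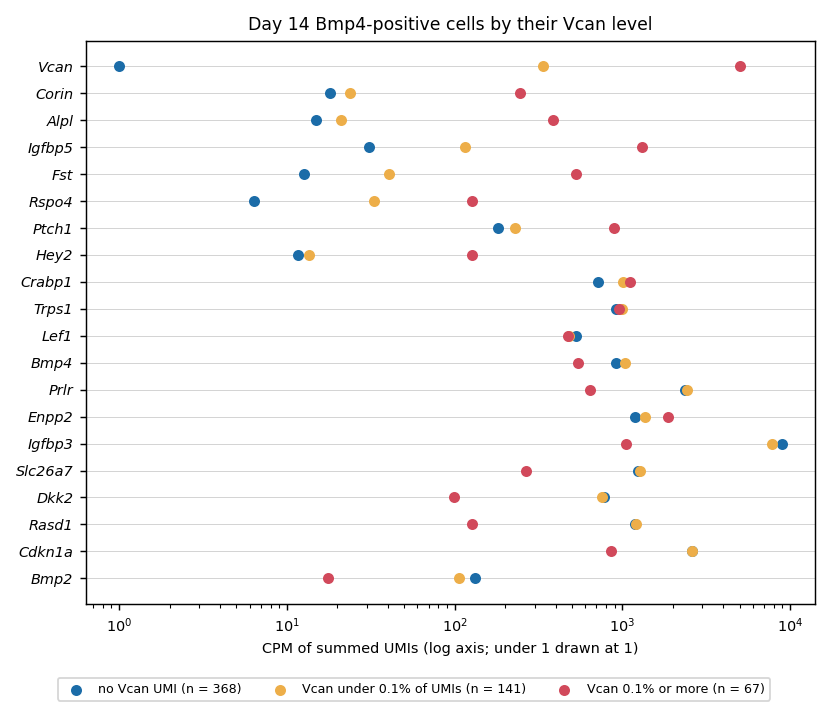
CPM of 20 genes, on a log axis, summed over Day 14 *Bmp4*-positive cells with no *Vcan* UMI (n = 368, blue), with *Vcan* under 0.1% of UMIs (n = 141, yellow) and at 0.1% or more (n = 67, red). *Corin*, *Alpl* and *Igfbp5* were highest in the red group, *Igfbp3* and *Slc26a7* lowest (1059 against 8923 CPM for *Igfbp3*), and *Lef1* and *Trps1* were alike in all.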

How the data were processed

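Single-cell 3' libraries (10x v3.1) of wounds on Days 3, 7, and 14 were processed by the authors with Cell Ranger 6.0.0 against mm10, per the submitters' processing notes, and deposited as UMI counts per gene and barcode without normalization. Gene symbols and coordinates came from GENCODE annotation of GRCm38 (32158 of 32285 genes matched). The members and gene lists were chosen with earlier results of these data known.

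Counts were summed per class. CPM carried exact Poisson intervals, ratios exact conditional binomial intervals and shares Clopper-Pearson intervals, at 95%. A class without UMIs was set to 3 counts. Macrophage-marker, pericyte-marker and keratinocyte-marker cells were non-members with *Dcn* and *Col1a2* under 1.5% and at least 0.5%, 0.2% (3 markers detected) or 1% of UMIs in their markers. Genes were named when they belonged to the 7 markers or the lists, or ranked among the 15 highest or 10 lowest against the reference on both days, or the 10 highest or lowest between days, with at least 50 CPM and 10 positive cells and without mitochondrial, ribosomal protein and rule genes and *Gm42418*. Simulated doublets among 50 neighbors gave a score, and called barcodes were kept and removed only as an alternative. The procedures were tested on simulated data. Python 3.11.15, numpy 2.4.6, scipy 1.17.1, pandas 2.3.3, scikit-learn 1.9.0 and matplotlib 3.10.9 were used.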

Additional observations from a re-analysis of the deposited data

Results flagged for a closer look

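*Cilp*, a cartilage and dermal matrix protein gene, was on opposite sides of the reference in the 2 libraries. The log2 ratio of members to reference fibroblasts was 2.09 on Day 7 and -1.48 on Day 14. The members' own level was 195 and 180.1 CPM, whereas the reference was at 45.8 and 501 CPM, and 36.8% of the Day 7 UMIs of the members came from 1 barcode. *Stmn1*, a tubulin-binding protein gene of dividing cells, was at -1.49 on Day 7, from 2 UMIs with an interval from -4.54 to 0.36, and at 2.75 on Day 14. Its levels were 20.5 and 117 CPM in the members and 57.6 and 17.4 CPM in the reference. Neither difference between days was tested, since each day was 1 library.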

How the results depend on the processing

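The share of members and the gene calls were recomputed under each alternative. Requiring a marker sum of 0.4% gave shares of 0.116% on Day 7 and 2.77% on Day 14, and requiring 4 of the 7 genes gave 0.116% and 3.16%, with a log2 ratio of shares of 4.77 and 829 genes lower on Day 14 than on Day 7. Leaving the 50 most abundant genes out of the scaling gave 853 lower genes, and shifted the median log2 ratio of all genes by -0.21 for members against reference on Day 14 and by -0.16 between days. A limit of 20 CPM in place of 50 gave 2531 higher and 1176 lower genes against the reference on Day 7, 2063 higher on Day 14, and 1060 higher and 1174 lower between days. Calling only whole intervals beyond 2-fold, chosen after seeing the data, gave 400 and 238 on Day 7 and 24 and 98 between days, or 12 and 17 without members that carried markers of other cell types. At 1000 UMIs per cell, 95% and 88.7% of members had an *Igfbp3* UMI and 62.5% and 47.0% a *Slc26a7* UMI.

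Of 6044 values of single genes, 5528 moved by less than their counting error, 495 moved beyond it and 21 were counted as reversed. The reversed values changed sign from main log2 ratios of 1.06 or more. Other sign changes were not among the 21. When barcodes carrying markers of other types were left out, for example, 172 of 196 values between days kept their sign. Against the reference, 181 of 204 did on Day 7 and 198 of 208 on Day 14. All of the 21 but that of *Igfbp6* were against the reference on Day 7. Without barcodes carrying markers of other types, log2 ratios became -1.41 (*C1qa*), -2.70 (*C1qb*), -1.30 (*C1qc*), -0.11 (*Ccl6*), -0.58 (*Ccnd1*), -0.83 (*Cd74*), -0.61 (*Ctsd*), -0.67 (*Fcer1g*), -0.17 (*Hmox1*), -0.56 (*Il1b*), -1.10 (*Lgmn*), -0.27 (*Lyz2*), -0.42 (*Psap*), -0.028 (*S100a8*), -0.62 (*S100a9*) and -1.15 (*Tyrobp*). With a marker sum of 0.4%, *Cd74* was at -0.85 and *Myl9* at -0.013, with 4 of the 7 genes *Cd74* was at -0.37 and *Igfbp6* at -0.064 between days, and without called doublets *Ccnd1* was at -0.82. The part of contaminating cells in these values was not tested further.

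No paired analysis was possible because each day was 1 library. Counting error was large on Day 7, where 1 UMI in the members equaled 10.2 CPM, and the spread between animals is unknown on both days.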
